A study of Drosophila mojavensis with 137 samples.

Results

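Among 14528 transcripts measured in whole adult Drosophila mojavensis, 100 were chosen by how much their level differed between replicate arrays of virgin males that carry the same labels. They were selected on W, the pooled standard deviation of the virgin male arrays around the mean of their group, on the log2 scale. A group is 1 combination of population, rearing cactus, sex, mating state and development time. Candidates had to stay within limits on some of the study's own factors. The mean of virgin females minus that of virgin males (S) lay within 2 log2 units. The averaged population effects in virgins of each sex and the averaged mating effects of each sex each lay within 0.2. The mating limit covered females of 1 population (Punta Prieta) and males on 1 cactus (agria). Rearing cactus and development time had no limit. A total of 8370 transcripts met those limits, and the 100 of highest W were taken from them. The values that chose these transcripts are given below as a description, with no test.

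The flies were wild type and came from Las Bocas in Sonora (stock LB09) and from Punta Prieta in Baja California (stock PP08). They had been raised on fermented tissue of agria or of organ pipe cactus in bottle cultures that all shared 1 cycling temperature and light regime. RNA of the whole organism, virgin or mated, was labelled with Cy3 and hybridised to 1-colour NimbleGen arrays, 137 in all. The labels give the egg-to-adult time as 14 to 18 days, although the design text stops at 17 days, and they give no adult age, no number of flies per sample and no word on separate cultures, so the p-values below cover only the spread between these arrays. Virgin males made up 53 arrays in 16 groups of 2 to 4, virgin females 42 arrays, mated males 22 and mated females 20. Virgin males numbered 13 arrays for Las Bocas agria, 13 for Las Bocas organ pipe, 12 for Punta Prieta agria and 15 for Punta Prieta organ pipe.

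Drosophila mojavensis breeds in rotting tissue of columnar cacti, and its populations use different host species, so the rearing cactus sets both the food and the microbes a larva meets. An extract of a whole fly mixes all tissues, gonads included, and transcripts made in 1 tissue move together when that tissue makes up more or less of the extract. Fewer cells of a type and less RNA per cell cannot be told apart in such samples. The deposited files and the reference table used here give no gene names for these transcripts, which are therefore named by their FlyBase transcript IDs, with no function given.

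Several arrays stood apart in their sex contrast, the mean level of transcripts with S above 2 minus that of transcripts with S below -2. A mated female array of Las Bocas on organ pipe (16 days, replicate 1) had a sex contrast of -2.69, on the male side, and the Punta Prieta counterpart titled mated male (16 days, replicate 2) had 3.24, on the female side. Both were left out of the replicate spreads and the mating comparisons unless stated. Another 4 female arrays had a low contrast of 1.95 to 2.27, against a median of 3.17 in virgin females. They were a Punta Prieta agria virgin array (14 days, replicate 1) and 3 mated arrays of Las Bocas flies on agria, at 14 days (replicate 1) and at 15 days (both replicates). On the male side, Punta Prieta organ pipe virgin males of 16 days, replicate 3 (-2.57), and of 17 days, replicate 1 (-2.62), had the weakest contrast among virgin males, whose median was -3.13. The descriptions of 3 arrays contradict their titles (replicate 3 of the 16-day agria virgin females from Las Bocas, and both mated female arrays from there on organ pipe), and all were used as titled.

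W lay between 0.582 and 0.811 in the 100 transcripts, with a median of 0.620, while the median over all 14528 transcripts was 0.233 and over the 8370 candidates 0.218. The choice did not take the most variable transcripts outright, since 381 of all transcripts had a W at least as high as the lowest member. FBtr0162334 (0.583) and FBtr0175461 (0.582) were just inside the limit, and FBtr0165275 (0.580) and FBtr0164957 (0.580) just outside it, so the edge of the set is not a step. The mean level of the members ran from 7.60 to 13.46 log2 units, with a median of 10.85, near the 11.38 of all transcripts. Of the 100, 85 lay outside the lowest 25% of transcripts by mean level, so dim signals made up a minority. S was positive in 88 of the 100, with a median of 0.57 and a range from -1.28 to 1.48. The rule limited only the size of S, and most members were at a somewhat higher level in virgin females than in virgin males.

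The members did not vary independently of each other. Across the 53 virgin male arrays, after each group mean was subtracted, the median Pearson r over the 4950 pairs of members was 0.77, and 3796 pairs (76.7%) had an r above 0.5. The lowest r was -0.36, and 0 pairs lay below -0.5. These correlations are descriptions over arrays that share probes, laboratory steps and normalization, and they carry no test. Average linkage at an r of 0.5 put 77 members into cluster 1, 15 into cluster 2 and 7 into cluster 3, and left FBtr0166287 alone. The split depended on the linkage and on a few arrays. Complete linkage gave 4 clusters of 5 or more members, the largest of 54. Average linkage without 3 Punta Prieta organ pipe arrays (16 days, replicate 3, and 17 days, replicates 1 and 3) gave 2, the largest of 82.

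**Figure D1:**
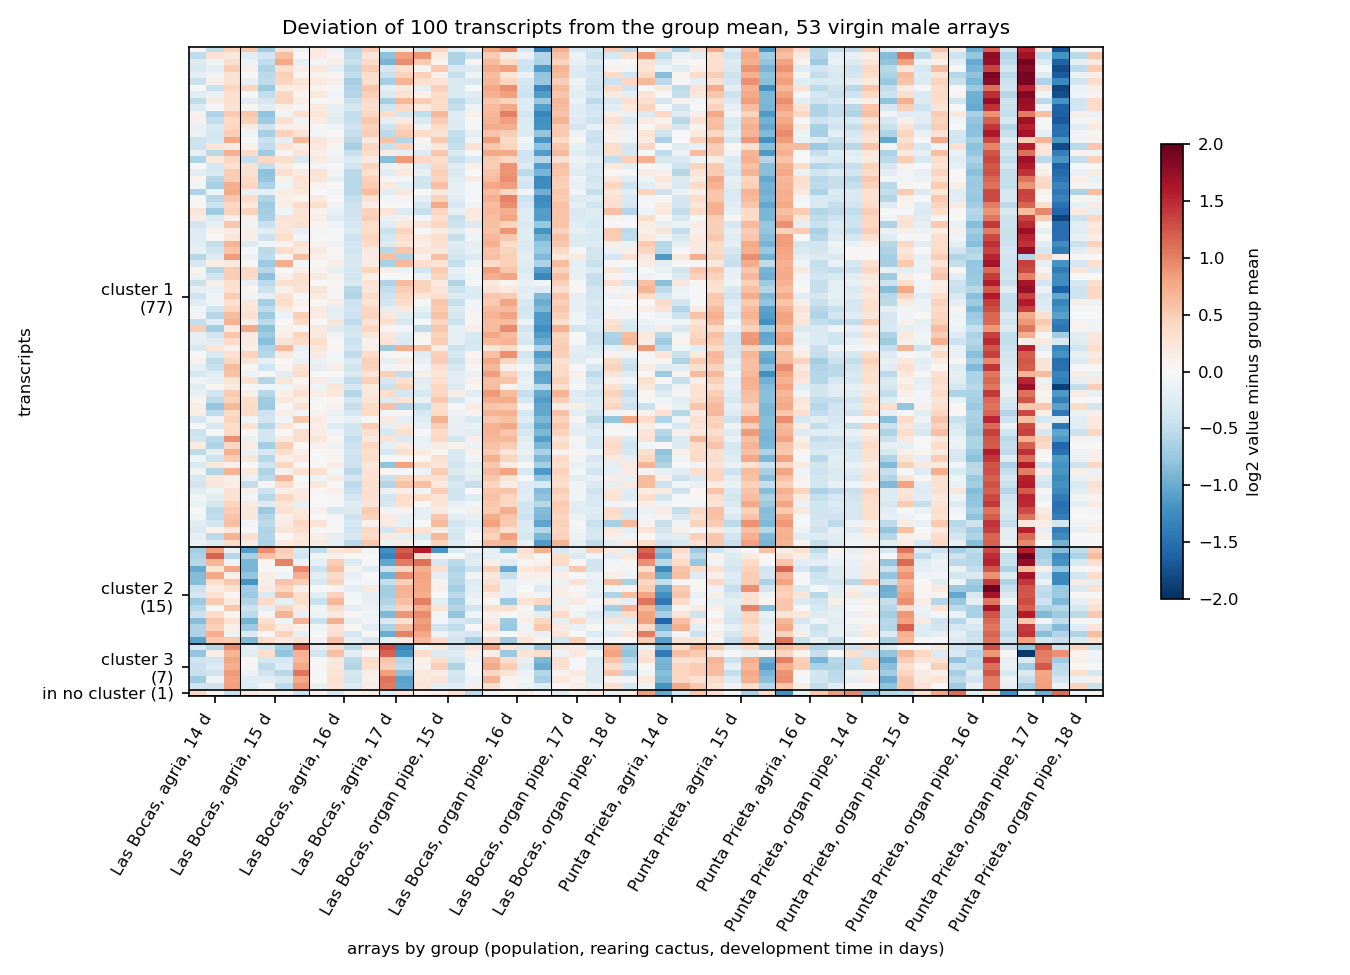
The log2 value of each of the 100 transcripts (rows, by cluster) minus its group mean, on each of the 53 virgin male arrays (columns, by population, rearing cactus and development time in days), from blue (low) to red (high). Cluster 1 changes colour as a block, most strongly on 3 arrays of Punta Prieta organ pipe males of 16 and 17 days.

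On its most deviating arrays, nearly all members of cluster 1 lay on the same side of their group mean. On others they were split, as on replicate 2 of the Punta Prieta organ pipe males of 17 days, where 41 of 77 lay above. Its mean deviation was 1.30 on the Punta Prieta organ pipe array of 16 days, replicate 3, where 77 of 77 members lay above their group mean. On the array of 17 days, replicate 1, it was 1.28, with 76 of 77 members above, and on replicate 3 of that same group it was -1.33, with 1 of 77 above. Replicates of 1 group, at the same cactus and age of development, thus lay 2.61 log2 units apart in the mean of 77 transcripts. Outside these arrays the lowest was a Las Bocas organ pipe array of 16 days, replicate 4, at -0.94 with 0 of 77 above, followed by a Punta Prieta agria array of 15 days, replicate 4, at -0.87. The replicates of a group spanned more than 1 log2 unit in the cluster mean in 5 of the 16 groups, and the median span was 0.75.

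FBtr0163387 (W 0.742) shows the pattern of cluster 1 in 1 transcript. In Punta Prieta organ pipe virgin males of 16 days its level was 10.97, 10.60, 13.16 and 10.79 in replicates 1 to 4, and at 17 days it was 13.02, 10.82 and 10.12 in replicates 1 to 3. A single array in each group stood over 2 units above the others. In the remaining 3 kinds of virgin male the level ran from 10.19 to 12.17 (Las Bocas agria, median 11.19), from 10.36 to 11.88 (Las Bocas organ pipe, median 11.08) and from 10.30 to 12.46 (Punta Prieta agria, median 11.23), and these ranges overlap almost completely.

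FBtr0170562 had the highest W of cluster 1 (0.747). At 16 days on organ pipe the Punta Prieta replicates read 11.18, 10.05, 12.22 and 10.67, and at 17 days 11.85, 10.54 and 8.57. Here the 17-day group was spread by a low array as well as a high one. In Las Bocas organ pipe males of 16 days the replicates read 11.39, 11.56, 10.25 and 9.21, so 2 arrays were high and 2 low, and neither low array is among those with a weak sex contrast.

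Cluster 2 moved on some of the same arrays and on others of its own. Its mean deviation was 1.34 on the 16-day replicate 3 and 1.32 on the 17-day replicate 1 of Punta Prieta organ pipe males, with 15 of 15 members above on each, and -0.96 on a Punta Prieta agria array of 14 days, replicate 2. The replicates spanned more than 1 unit in 8 of 16 groups. The cluster was dimmer than the others, with a median level of 9.43 against 10.88 in cluster 1 and 11.26 in cluster 3. Its member FBtr0168246 had the highest W of all 100 (0.811) and read 6.98, 7.14, 8.97 and 7.50 in Punta Prieta organ pipe males of 16 days and 9.18, 6.93 and 6.74 at 17 days. The same transcript also ranged from 7.21 to 9.23 among 4 Las Bocas agria replicates of 15 days and from 6.30 to 9.04 among 4 Las Bocas organ pipe replicates of 15 days. High arrays of FBtr0168246 therefore occurred in both populations and on both cacti. FBtr0165842 (W 0.755) read 8.83, 8.66, 10.75 and 8.77 at 16 days and 11.48, 8.85 and 8.26 at 17 days in Punta Prieta organ pipe males, and 8.35 and 10.99 in the 2 Las Bocas agria replicates of 17 days.

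Cluster 3 separated from cluster 1 on the array of Punta Prieta organ pipe males of 17 days, replicate 1. There its mean deviation was -0.74 with 0 of 7 members above the group mean, while clusters 1 and 2 were at 1.28 and 1.32. It was high, like them, on the 16-day replicate 3 (1.14), and at 0.98 on the 17-day replicate 2. The replicates spanned more than 1 unit in 10 of 16 groups. FBtr0169036 (W 0.732) read 10.32, 10.26, 12.00 and 10.26 at 16 days and 8.57, 10.57 and 8.91 at 17 days in Punta Prieta organ pipe males, and 9.80 and 7.20 in the 2 Las Bocas agria replicates of 17 days.

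The arrays of Punta Prieta organ pipe males carried much of the variation. On the 16-day replicate 3, 92 of the 100 members lay over 1 unit from their group mean, against 7.38% of all transcripts. On the 17-day replicates 1 and 3 the counts were 76 and 76, against 5.50% and 4.06%. Those 3 arrays held a median of 35.2% of a member's squared deviations (range 9.17% to 55.7%) and 23.3% of the squared deviations summed over all transcripts. Without them the median W of the members was 0.516, with a range of 0.401 to 0.734, against 0.208 over all transcripts. The arrays that remain also chose the members, so this W is a description and no independent measure of their spread. The mean r between members of cluster 1 was 0.83 with the 3 arrays and 0.77 without them.

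The spread of all values on an array moved with cluster 1. The 14528 log2 values had an SD of 1.67 to 1.89 on the virgin male arrays, with a median of 1.80. The 5 virgin male arrays with the highest cluster 1 deviation (0.62 to 1.30) had an SD of 1.67 to 1.76, and the 5 with the lowest (-1.33 to -0.51) had 1.82 to 1.88, so the ranges of SD did not overlap. In virgin females the 5 highest arrays (0.48 to 0.70) had an SD of 1.65 to 1.78 and the 5 lowest (-0.74 to -0.48) one of 1.77 to 1.90. The 2 male arrays highest in cluster 1 are also the 2 of weakest sex contrast. When every array was centred on its median and divided by its SD, the median W of the members was 0.643 against 0.225 over all transcripts, again on the arrays that chose them. The part of the array SD in the pattern was not tested.

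**Figure D2:**
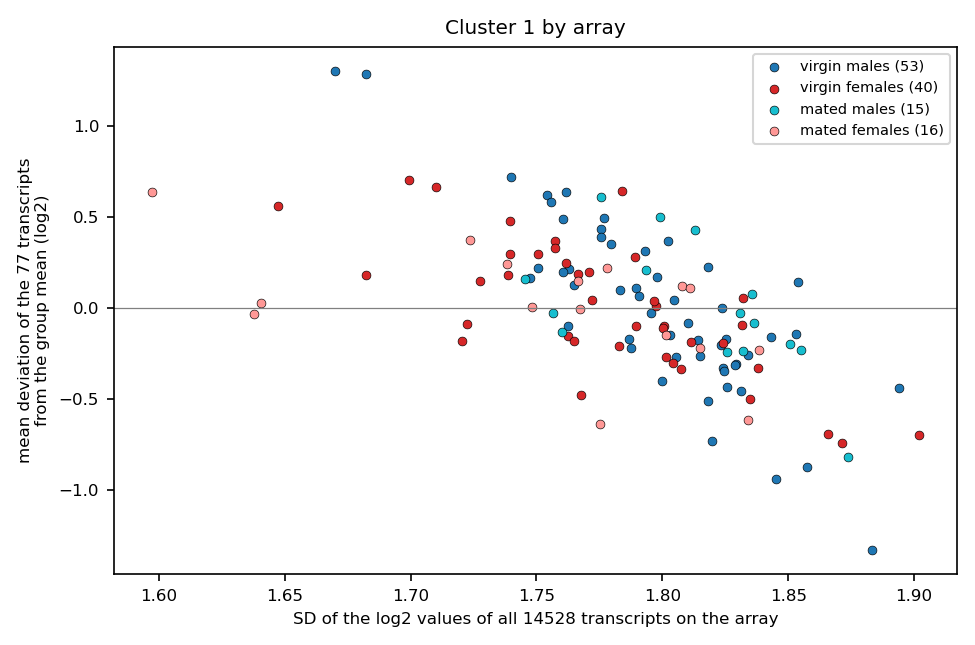
Mean deviation of the 77 transcripts of cluster 1 from the group mean (vertical axis, log2) against the SD of all log2 values on the array (horizontal axis), 1 point per array, coloured by sex and mating state, for the arrays in groups of at least 2. The arrays of low SD lie mostly above 0 and those of high SD mostly below it, and 2 virgin male arrays lie near 1.3 at an SD of 1.67 and 1.68.

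Many other transcripts followed cluster 1. In virgin males 1144 of all transcripts (7.87%) had an r above 0.8 with the cluster mean and 232 (1.60%) an r below -0.8. In virgin females, whose arrays took no part in the choice by W, 1468 (10.1%) lay above 0.8 and 451 (3.10%) below -0.8. The lists above 0.8 shared 770 transcripts, which are 67.3% of the male list and 52.5% of the female list. For cluster 2 the male list held 388 transcripts (2.67%) and the female list 313 (2.15%), with 208 in common (53.6% and 66.5% of the lists). For cluster 3 they held 62 (0.427%) and 265 (1.82%), with 39 in common (62.9% and 14.7%). The movement between replicates was thus shared by many more transcripts than the 100.

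The label of the set names virgin males, but the same transcripts also varied between replicates of the other kinds of fly, whose arrays W did not use. In 40 virgin female arrays of 13 groups the median replicate SD of the members was 0.490 against 0.256 over all transcripts, and 84 of 100 members were in the highest 10%, where by construction 10.0% of all transcripts lie. In 15 mated male arrays of 5 groups the medians were 0.426 and 0.159, with 76 members in the highest 10%. In 16 mated female arrays of 7 groups they were 0.445 and 0.256, with 56 members. Cluster 2 had fewer of its members there in mated flies of both sexes. In mated males 5 of its 15 were in the highest 10%, compared with 63 of 77 in cluster 1 and 7 of 7 in cluster 3, and in mated females 4 of 15, compared with 47 of 77 and 4 of 7. The difference between clusters was not tested. With the 2 opposite-sex arrays kept in, the members in the highest 10% numbered 13 in mated males and 2 in mated females.

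The members of cluster 1 also moved together in those arrays. Their mean pairwise r was 0.81 in virgin females, 0.81 in mated males and 0.83 in mated females, close to the 0.83 of virgin males. For cluster 2 the mean was 0.78 in virgin males, 0.71 in virgin females, 0.24 in mated males and 0.61 in mated females, so its members moved together least in mated males. For cluster 3 it was 0.82, 0.65, 0.96 and 0.74 in the same order. In virgin females the cluster 1 deviation ran from -0.74 to 0.70, and in mated males from -0.82 to 0.61, where both ends were replicates of Punta Prieta agria males of 15 days. In that mated group FBtr0169036 of cluster 3 read 8.18, 10.39 and 11.00.

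**Figure D3:**
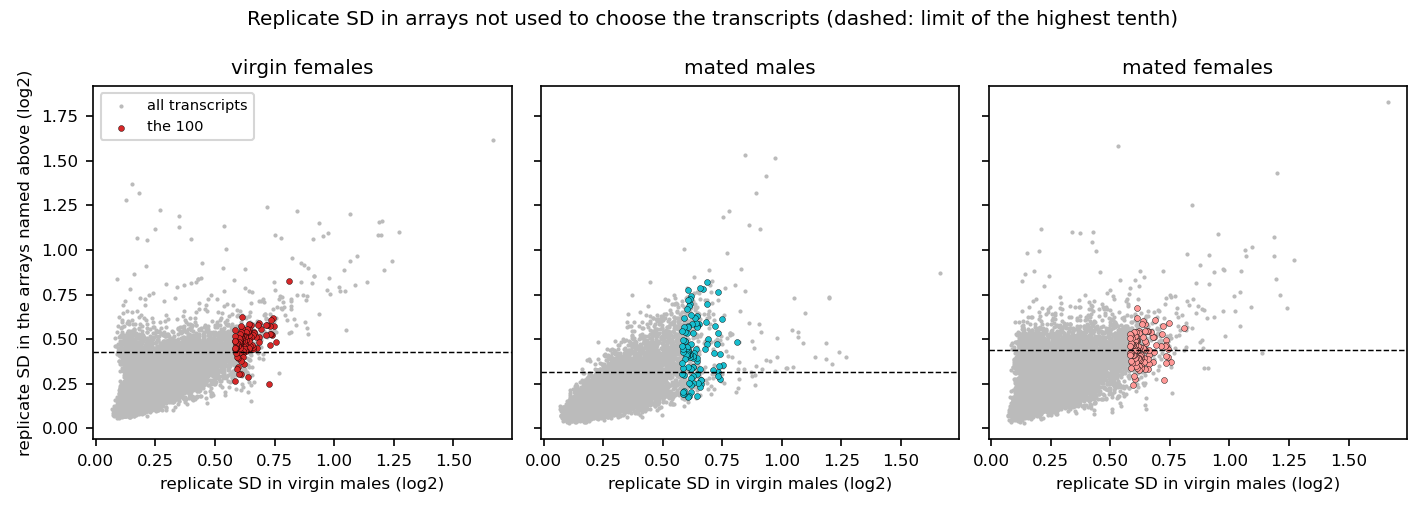
Replicate SD (log2) of each transcript in virgin females, mated males and mated females (vertical axes) against that in virgin males (horizontal axis), with all transcripts in grey and the 100 in colour. The dashed line is the limit of the highest 10%, above which lie 84, 76 and 56 of the 100.

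Whether the spread itself differed between mated males and females was tested with limma on the mean absolute deviation of each group, over 5 mated male groups (15 arrays) and 20 female groups, virgin and mated (56 arrays). FBtr0161722 passed at an adjusted p below 0.05, with a mean absolute deviation of 0.14 in mated males and 0.46 in females (difference -0.32, SE 0.083, limma adjusted p 0.0280). It was 1 of 100 members called, against 3.96% of all transcripts (565 lower in males and 10 higher). Its call was lost in 6 of 9 alternatives. The adjusted p was 0.613, 0.109, 0.254 and 0.0858 without replicate numbers 1, 2, 3 and 4, 0.733 with the opposite-sex arrays and 0.233 against mated females only. The median difference was -0.07 over the members and -0.06 over all transcripts.

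The deviations were then set against the replicate number. An F test of the replicate number within groups called 0 members and 0% of all transcripts in both sexes, with a smallest adjusted p among members of 0.970 in males and 0.824 in females (limma). At an unadjusted p below 0.05 it held 0 and 2 members, and 301 and 772 of all transcripts. Virgin male and female arrays of the same population, cactus, days and replicate number could be matched in 39 pairs. The deviation of cluster 1 had the same sign in both sexes in 19 of the 39, that of cluster 2 in 17 and that of cluster 3 in 19.

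The rearing cactus, averaged over populations and adjusted for development time, was tested next, since the choice did not limit it. In virgin males 1 of 100 members passed, against 1.36% of all transcripts (198, of which 193 were higher on organ pipe). That member was FBtr0166287, the transcript in no cluster, which rose on organ pipe by 1.09 log2 units (SE 0.191, limma adjusted p 0.00105). An unadjusted p below 0.05 was reached by 1 member, against 8.87% of all transcripts (1289). That count stayed at 1 with any 1 replicate number left out, but not in every setting. It was 37 with array weights (2884 of all transcripts) and 16 without the arrays of low sex contrast (1817). Without the 3 most deviating arrays it was 10 (1776). With mated arrays added and the 2 opposite-sex arrays left out it was 27 (1066). In the main fit the members other than FBtr0166287 had effects between -0.25 and 0.14, and none of them passed. The median over the 100 was -0.12, and 94 of the 100 effects were negative. The SE of a member's effect ran from 0.162 to 0.240, with a median of 0.181, because members were chosen for a large spread among these very arrays.

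FBtr0166287 lay on Las Bocas agria between 10.71 and 11.65 with a median of 11.16 in 13 virgin male arrays, and on Las Bocas organ pipe between 11.90 and 12.85 with a median of 12.21 in 13. The groups did not overlap, and their means were 11.15 ± 0.289 (SD, n = 13) and 12.24 ± 0.292 (SD, n = 13). In Punta Prieta the agria arrays ran from 9.97 to 12.02 with a median of 11.36 (mean 11.14 ± 0.703, SD, n = 12), and the organ pipe arrays from 10.48 to 14.50 with a median of 12.65 (mean 12.40 ± 0.995, SD, n = 15). The averages of the populations were close, but the Punta Prieta cacti overlapped and their replicates were more spread. At 17 days the Punta Prieta organ pipe replicates read 13.23, 12.40 and 14.50, and at 16 days 12.84, 11.50, 12.03 and 10.48. The highest value, 14.50, came from the array on which cluster 1 was lowest.

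In virgin females the cactus groups lay closer together. The mean of FBtr0166287 was 10.71 ± 0.338 (SD, n = 11) on Las Bocas agria, 10.91 ± 0.486 (SD, n = 8) on Las Bocas organ pipe, 10.72 ± 0.292 (SD, n = 11) on Punta Prieta agria and 11.10 ± 0.250 (SD, n = 12) on Punta Prieta organ pipe. The difference of the cactus effect between the sexes was -0.85 (females minus males, SE 0.242) and did not pass (limma adjusted p 0.146). For that difference 0 of 100 members were called, against 0.110% of all transcripts, and 7 were at an unadjusted p below 0.05, against 11.7%. With array weights the difference was -0.84 and passed (limma adjusted p 0.0163), so the call depends on that setting.

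Mating in Punta Prieta organ pipe males, a contrast the rule did not use although its virgin arrays entered W, called FBtr0166287 again. In 10 mated arrays it lay between 10.80 and 11.44 with a median of 10.99, inside the lower part of the virgin range. The fall was by 1.34 log2 units (SE 0.290, limma adjusted p 0.00655). This comparison and that of the cacti share the 15 virgin arrays of Punta Prieta organ pipe. In Las Bocas agria males, whose virgin mean was 11.15, the mated mean was 11.31 ± 0.283 (SD, n = 5), and in Punta Prieta agria males the values were 11.14 and 11.26 ± 0.788 (SD, n = 5). The rule held the mating effect averaged over these agria males within 0.2, so a small change there was set by the choice. Whether the mating effect differed between the cacti was not tested. The single mated Las Bocas organ pipe array read 11.18, below all 13 of its virgin counterparts.

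**Figure D4:**
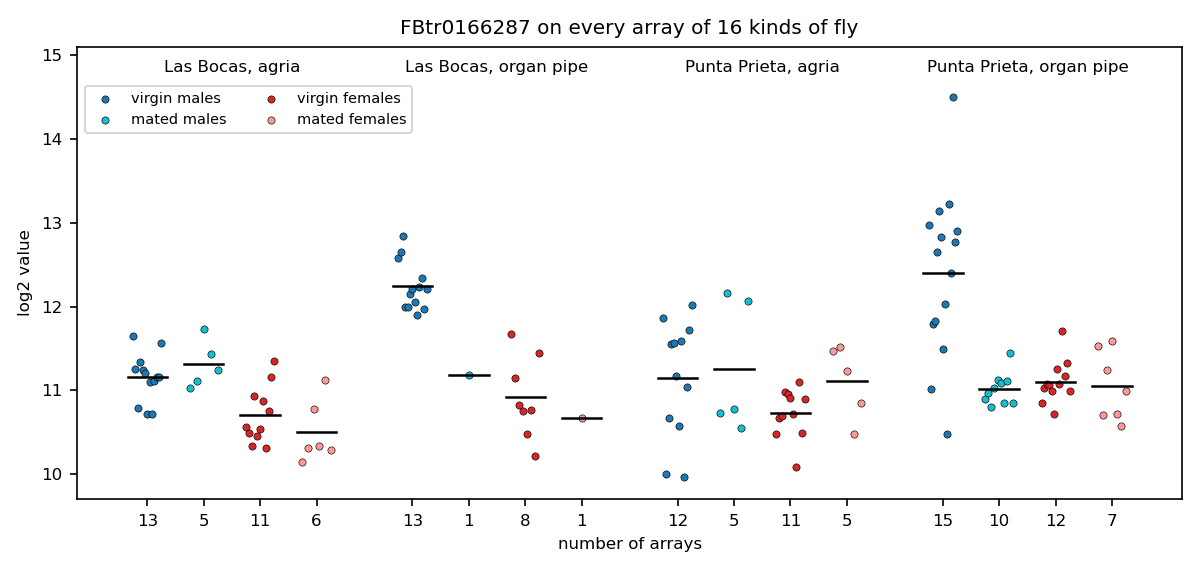
The log2 value of FBtr0166287 on each array (points) by population, rearing cactus, sex and mating state, with the mean as a line and the number of arrays under each column. Virgin males on organ pipe lie highest, Las Bocas organ pipe males do not overlap Las Bocas agria males, and the 10 mated Punta Prieta organ pipe males lie between 10.80 and 11.44.

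The calls of FBtr0166287 were not kept under every alternative. The cactus effect stayed past the threshold in 13 of 15 alternatives and ranged from 0.69 to 1.22, and it was not past it without replicate 1 (adjusted p 0.119) or without replicate 3 (adjusted p 0.0593). The mating effect stayed past it in 6 of 8, with a range from -1.62 to -1.11, and was not past it without replicate 1 or without replicate 3, where the adjusted p reached up to 0.303.

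Apart from FBtr0166287, 0 members were called by mating in Punta Prieta organ pipe males, where 5.56% of all transcripts passed (494 higher and 314 lower in mated flies). The effects of the 100 had a median of -0.45, and 90 were negative, against a median of 0.03 over all transcripts. Of the 100, an unadjusted p below 0.05 was reached by 23 members, against 22.5% of all transcripts. The virgin side holds the 3 most deviating arrays. Without them 6 members passed (2 higher and 4 lower in mated flies), against 1199 of all 14528 transcripts. The median of the members was then -0.26. Without the 2 arrays of weak sex contrast 4 passed (3 higher and 1 lower), against 979 of all transcripts, and the median was -0.19.

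In virgin females the cactus called 0 of 100 members, against 0.0275% of all transcripts (4). The 8 members at an unadjusted p below 0.05 all had positive effects (higher on organ pipe), against 15.8% of all transcripts at that level. With array weights 5 of 100 members passed, against 1466 of all 14528 transcripts. FBtr0166287 was higher on organ pipe (0.33, limma adjusted p 0.0359) and 4 members were lower, and the median over the 100 was then -0.14. No common direction of the members in females held across these settings. The smallest adjusted p without weights was that of FBtr0167546, at 0.44 (SE 0.151, limma adjusted p 0.281). All 15 members of cluster 2 had a positive effect in females, with a median of 0.35, while the median over the 100 was -0.01. None of the 15 passed, and the SE of the members had a median of 0.168.

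Development time, tested as a linear effect per day, called 0 members and 0% of all transcripts in virgin males and 0 members and 0% of all transcripts in virgin females (limma). In females the effects of 98 of the 100 members were negative, with a median of -0.16 per day, and 59 members had an unadjusted p below 0.05, against 11.6% of all transcripts at that level. That count depended on the setting. It was 18 without the virgin female array of low sex contrast, 0 without replicate number 1 and 14 without replicate number 4. Of all transcripts, 849, 302 and 1076 were at that level there, and the members' medians were -0.13, -0.08 and -0.14 per day. Leaving out replicate number 1 also removed every 18-day array of virgin females. The count was 44, 61 and 54 without replicate numbers 2, 3 and 5 (1641, 1783 and 1639 of all transcripts). With array weights it was 79 (4657 of all transcripts). The smallest adjusted p in females was that of FBtr0163387, with -0.21 per day (SE 0.0959, limma adjusted p 0.409). In males the median was -0.05 per day, 2 members and 12.5% of all transcripts were at an unadjusted p below 0.05, and the smallest adjusted p was that of FBtr0169036, at -0.21 (limma adjusted p 0.378). The difference of the day effect between the sexes called 0 members and 0% of all transcripts, with a median over the members of -0.11 (females minus males) and a smallest adjusted p of 0.374 for FBtr0172569 (limma). At an unadjusted p below 0.05 it held 1 member, against 13.4% of all transcripts. The members share replicates and moved together, so 59 members at an unadjusted p are not 59 separate results.

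Whether the cactus effect differed between the populations was tested as an interaction (Punta Prieta minus Las Bocas, of organ pipe minus agria). It called 0 members and 0% of all transcripts in virgin males, and 0 members and 0% of all transcripts in virgin females. The members' median was -0.20 in males and -0.39 in females, where 96 of the 100 were negative. The smallest adjusted p values were 0.942 in males (FBtr0168246, 0.69) and 0.277 in females (FBtr0164921, -0.47). An unadjusted p below 0.05 was reached by 0 members and 3.58% of all transcripts in males, and 1 member and 15.2% of all transcripts in females. The SE had a median of 0.334 in males and 0.308 in females.

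Mating in Las Bocas agria females, the other mating contrast that the rule did not use, called 0 of 100 members, against 0.282% of all transcripts (41), although 98 of the 100 effects were positive, with a median of 0.70. Of the 100, an unadjusted p below 0.05 was reached by 85 members, against 41.2% of all transcripts. The smallest adjusted p was that of FBtr0175255, which read 13.57, 11.91, 12.94, 13.20, 11.74 and 11.84 on the 6 mated arrays and from 10.80 to 12.10 on the 11 virgin arrays (difference 0.90, SE 0.251, limma adjusted p 0.0526). Its 3 highest mated values came from the 3 arrays of low sex contrast.

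The same split held for the cluster 1 mean level in Las Bocas agria females. It was 12.67, 12.46 and 12.52 on the mated arrays of low sex contrast and 11.39, 11.57 and 11.55 on the other mated arrays, while the virgin arrays lay between 10.51 and 11.81. The 3 arrays of low contrast lay above all virgin arrays, and the other 3 lay within their range. Without the low-contrast arrays, which leaves 3 mated arrays, the members' median difference was 0.26. None of the members passed (smallest limma adjusted p 0.999), against 5 of all 14528 transcripts. An unadjusted p below 0.05 was reached by 2 members and by 317 of all transcripts, where the main fit had 5992 of all. Without the arrays of replicate number 2, 66 members passed, against 18.7% of all transcripts (2722). That setting also left 3 mated arrays, and 2 of them were of low sex contrast (cluster 1 mean levels 12.67 and 12.46). The other was at 11.57, within the range of the virgin arrays. Mating apart from the low-contrast arrays was not tested in that setting.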

How the data were processed

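The values are log2 expression levels as the authors deposited them, 1 per transcript and array, made with RMA per the submitters' processing notes; its version and the annotation release are not stated in the sources at hand. RMA brings arrays towards a common distribution, so changes in a fly's total RNA are not visible, and differences of dim transcripts are compressed. The array medians were close (11.24 to 11.50, 0 missing values, 0 identical arrays). The spread was not equal. Apart from the 2 opposite-sex arrays, the SD of an array's log2 values ran from 1.60 (in mated females) to 1.90 (in virgin females). Scanner signals and slides were not analysed here, so slide effects were not tested; the number of arrays limits the precision.

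Groups come from the titles. Members, clusters and lists were chosen with earlier results of these data known. Tests used limma 3.58.1 in R 4.3.3 (lmFit, eBayes) on all 14528 transcripts, with Benjamini-Hochberg adjustment and a threshold of 0.05; other steps used Python 3.11.15. Virgin fits held population, diet, development time and the population by diet product, within each sex. The 2 mating comparisons were added after seeing the data. The spread test was planned on the deviations of single arrays, but in simulated data that version made 96 false calls where SDs were doubled (multiplied by 2.0 in 200 transcripts), so 1 value per group was used (8 false calls, 27.5% of the changed transcripts recovered). In simulated data an effect of 0.5 was recovered for 93.5% of 200 changed transcripts for diet in virgin males, 80.5% for diet in virgin females, and 45.0% and 38.0% for the population by diet product in males and females. The changed transcripts were drawn at random from all 14528, with independent noise. These shares do not apply to the members, which were chosen for a large spread and moved together, and recovery among them was not simulated.

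Transcripts named are the 2 of highest W in clusters 1 and 2, those beside the limit on W, and for each test at most 2 higher and 2 lower of largest effect past the threshold, or else the 1 of smallest adjusted p. FBtr0169036 was named after its values were seen when it was used for cluster 3. Planned gene lists had 0 measured members, since 0 of 14528 IDs were among the 15130 genes in the reference, and no sequences were used. Replicate numbers were not used to pair samples in the main fits. Over 20 same-number pairs of virgin male groups across diets 4 had an r above 0.1 (median -0.17, against 0.11 over different-number pairs). Over 13 in females 5 did (median -0.20, against 0.04). Deviations cancel within each group, so same-number and different-number values are not independent. This check, across diets within a sex, cannot settle whether the numbers pair samples. Alternatives were other scalings, filters, weights, variance models, sample sets and each replicate number left out.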

Additional observations from a re-analysis of the deposited data

Results flagged for a closer look

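Named members and cluster means were looked at within groups of 4 or 5 arrays, in 135 combinations of item and group. In 14 of them 1 array lay far from the others, by its gap to the nearest array as a share of the group's range. For values not chosen by their spread, chance would give about 1 in 20. Virgin male deviations chose the members, and members and cluster means share arrays, so that rate is no yardstick here. The Punta Prieta organ pipe virgin male array of 16 days, replicate 3, stood above the other 3 in FBtr0163387 (gap share 0.855, 13.16 against 10.60 to 10.97), FBtr0165842 (0.919, 10.75 against 8.66 to 8.83), FBtr0169036 (0.964, 12.00 against 10.26 to 10.32) and the mean of cluster 2 (0.968, 10.91 against 9.11 to 9.16). In the same kind of male at 15 days, replicate 2 stood above in FBtr0168246 (0.896, 8.68 against 7.18 to 7.34). In Las Bocas agria virgin males, FBtr0166287 was low on replicate 2 of 16 days (0.858, 10.72 against 11.10 to 11.16), cluster 1 was low on replicate 2 of 15 days (0.881, 10.56 against 11.20 to 11.28), and cluster 2 was low on replicate 1 of 15 days (0.872, 9.30 against 10.26 to 10.40).

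In virgin females, FBtr0170562 was high on Las Bocas agria, 16 days, replicate 1 (0.959, 11.61 against 11.01 to 11.03) and on Punta Prieta organ pipe, 15 days, replicate 4 (0.846, 11.99 against 10.73 to 10.92). The Las Bocas agria array of 15 days, replicate 5, was high in FBtr0168246 (0.714, 8.45 against 6.62 to 7.15) and in cluster 2 (0.769, 10.57 against 9.31 to 9.60). Cluster 3 was low on Punta Prieta agria, 16 days, replicate 2 (0.935, 11.02 against 11.86 to 11.92). In mated males, cluster 2 was low on Punta Prieta organ pipe, 15 days, replicate 3 (0.987, 9.12 against 9.45 to 9.45).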

How the results depend on the processing

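Of 141 alternative counts, 120 stayed within 1.5 times the reported one and 21 did not. The 120 include counts that were 0 in both settings, and the direction of the effects did not enter. Of the 100 transcripts, 50 were chosen again without the arrays of low sex contrast (43 fell outside the limits), 39 with group means weighted equally (61 outside), 53 with the median absolute deviation, and 65 to 84 with 1 replicate number left out. With the opposite-sex arrays, 13 members were in the highest 10% by replicate SD in mated males and 2 in mated females. Diet in virgin males called 0 to 1 members with 1 replicate number left out (all transcripts 0 to 232), and 696 of all transcripts with array weights. With array weights diet in virgin females called 5, 1 higher and 4 lower on organ pipe (1466 of all, against 4; 0 to 83 with 1 replicate number left out), and the sex difference of diet called 1, FBtr0166287 (288 of all, against 16). The spread test called 4 with 1 value per array (2449 of all, against 575), 0 with the opposite-sex arrays, 0 against mated females only, 2 on SD-scaled arrays, and 0 to 1 with 1 replicate number left out. Mating in Punta Prieta organ pipe males called 4 without the low-contrast arrays (979 of all) and 6 without the 3 most deviating arrays (1199 of all). With 1 replicate number left out it called 0 to 1 (50 of all, against 808, without number 1). In Las Bocas agria females the range was 0 to 66 (2722 of all where it was 66). The 66 came without number 2, where 2 of the 3 mated arrays kept were of low sex contrast. Without replicate number 1 the males' population by diet effect had a positive median (0.15) in place of -0.20. Reasons for these shifts were not tested, beyond the arrays each setting leaves out.

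With the replicate number as a block, diet called 1 member in virgin males and 0 in virgin females, mating called 1 in Punta Prieta organ pipe males and 0 in Las Bocas agria females (12 of all transcripts, against 41), and no member's call changed.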
